A study of Mus musculus with 6 samples.

Results

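Connexins are the membrane proteins that build gap junctions, and 7 connexin genes were followed here in the sensory epithelia of the newborn mouse inner ear: Gjb2, Gjb6, Gja1, Gja4, Gja5, Gjc1 and Gjc3. They were chosen by symbol as the connexin genes of main interest in this tissue and its vessels and nerves. All 7 matched a gene row, and all 7 were among the 14723 genes tested, of 39179 gene rows in all. The connexin family as a whole was taken as 20 genes, of which 10 passed the filter on low counts (at least 1 CPM, the count scaled to the total of its library, in 3 or more of the 6 libraries).

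The cochlea is the hearing organ and the vestibule the balance organ, and RNA was sequenced from the dissected sensory epithelium of each, in 3 libraries per organ. The comparison asks how the transcriptomes of these neighbouring organs differ. All samples were wild-type C57Bl/6J mice at P0, male and female pooled, with no treatment, and per the labels at least 20 cochleae or vestibules were pooled and 450 ng of RNA went into each library. The design text gives 20 inner ears of 10 mice as the source of the RNA and describes sequencing in triplicate. It does not say whether the 3 libraries of an organ came from separate RNA pools, so that n = 3 counts libraries, not animals. The p-values measure only the spread between these libraries, and how much of it is technical was not tested. The libraries differed in content, with summed skeletal muscle markers at 4.54, 8.64 and 303 CPM in cochlea replicates 1 to 3.

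Connexin subunits assemble in groups into hemichannels, and hemichannels of adjoining cells dock into a channel that passes ions, second messengers and small metabolites. In the inner ear, Gjb2 and Gjb6 encode the main subunits that couple the supporting cells and the connective tissue cells, a coupling known for recycling potassium and passing metabolites, and loss of either is a known cause of deafness. Vessels, nerve sheaths and connective tissue use other members of the family.

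The libraries held between 24464483 and 33664793 counts on genes, so that 1 CPM stands for 24.5 to 33.7 counts. Between any 2 libraries of the same organ the chi-square of the counts per degree of freedom was at least 26.6, so no library was a copy of another. Of the 15 markers of cochlear supporting cells, 14 were called higher in the cochlea and 1, Otog, in the vestibule, and hair cell markers were present in both organs (summed level 811 to 923 CPM in the cochlea and 1240 to 1570 CPM in the vestibule). Non-sensory cells were present too. Their markers stand beside the results they move with, and skeletal muscle markers reached 303 CPM in cochlea replicate 3, where no other library exceeded 28.5 CPM.

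Gjb2 and Gjb6 are neighbours on chromosome 14 of GRCm38. Both lie on the minus strand, Gjb2 at 57098600 to 57104702 and Gjb6 at 57123303 to 57133611, with 18.6 kb between them. In both genes the whole coding sequence lies in 1 exon. The 250 bases before the transcription start in RefSeq are shown for this pair because the genes differ in their change between the organs, and for Gja4 and Gja5 because they share a direction. The sequences are from RefSeq (GRCm38.p6), read 5′ to 3′ on the gene's strand. Capitals mark GGGCGG, the GC box, or its reverse complement.
Gjb2 (chr14:57104703-57104952, minus strand): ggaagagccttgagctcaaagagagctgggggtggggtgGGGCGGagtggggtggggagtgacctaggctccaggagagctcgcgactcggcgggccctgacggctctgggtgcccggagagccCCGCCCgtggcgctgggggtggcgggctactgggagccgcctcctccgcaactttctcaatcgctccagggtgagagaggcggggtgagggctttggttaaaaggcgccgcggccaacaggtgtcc
Gjb6 (chr14:57133612-57133861, minus strand): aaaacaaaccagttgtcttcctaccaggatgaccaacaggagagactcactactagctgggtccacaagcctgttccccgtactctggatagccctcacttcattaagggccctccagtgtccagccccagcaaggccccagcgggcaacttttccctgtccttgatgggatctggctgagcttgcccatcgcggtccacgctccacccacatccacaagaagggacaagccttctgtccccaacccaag
Gja4 (chr4:127314040-127314289, minus strand): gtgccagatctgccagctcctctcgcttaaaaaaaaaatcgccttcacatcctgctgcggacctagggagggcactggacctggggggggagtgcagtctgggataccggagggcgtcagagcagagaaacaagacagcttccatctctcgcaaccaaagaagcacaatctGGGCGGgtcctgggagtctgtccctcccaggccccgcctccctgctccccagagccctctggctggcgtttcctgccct
Gja5 (chr3:97032152-97032401, plus strand): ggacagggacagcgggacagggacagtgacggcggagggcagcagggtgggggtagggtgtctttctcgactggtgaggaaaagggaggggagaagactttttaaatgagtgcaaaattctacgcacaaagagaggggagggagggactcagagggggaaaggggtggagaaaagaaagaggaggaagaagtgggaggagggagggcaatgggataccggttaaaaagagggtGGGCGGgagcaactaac

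The Gjb2 stretch held GGGCGG at 2 places, 211 to 206 bases and, on the opposite strand, 126 to 121 bases before the start, with 18 CpG pairs and a GC content of 69.2%. The Gjb6 stretch held 5 CpG pairs and 56.8% GC, and none of the 4 motifs searched on both strands was in its letters. These were GGGCGG (the GC box), TATAAA (the TATA box), CCAAT (the CCAAT box) and TGANTCA (the AP-1 element), and no match in these genes overlapped that of another motif. One GGGCGG lay 79 to 74 bases before the start of Gja4 and 1 lay 17 to 12 bases before the RefSeq start used for Gja5. That start lies inside the span that GENCODE gives the gene, which begins upstream at 96904693. Of 32851 RefSeq promoters of the same length, 32.7% held the GC box, 12.4% the TATA box, 33.8% the CCAAT box and 6.75% the AP-1 element. The Gja1 stretch (chr10:56377050-56377299) held TGANTCA 19 to 13 bases before the start, and that of Gjc3 (chr5:137963099-137963348) held CCAAT 85 to 81 bases before it. For Gjc1 the sequence table had no entry. These matches describe letters, not bound sites.

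In the comparison of the organs, 5 of the 7 connexins were called (adjusted p under 0.05, from the quasi-likelihood test of edgeR and the Benjamini-Hochberg method over all genes tested), against 27.4% of all genes tested. Gjb2 and Gjc1 were higher in the cochlea, a direction in which 11.6% of genes were called. Gja1, Gja4 and Gja5 were higher in the vestibule, a direction that took 15.8% of genes. Gjb6 and Gjc3 were not called. The libraries of the organs did not overlap in the same 5 genes, compared with 41.8% of all genes tested, of which 14.3% had all cochlear libraries above the vestibular ones and 27.5% the reverse. Log2 fold changes are vestibule minus cochlea throughout, and the median over all genes was 0.0048. In bulk tissue, fewer cells of a type and less RNA per cell cannot be told apart.

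**Figure D1:**
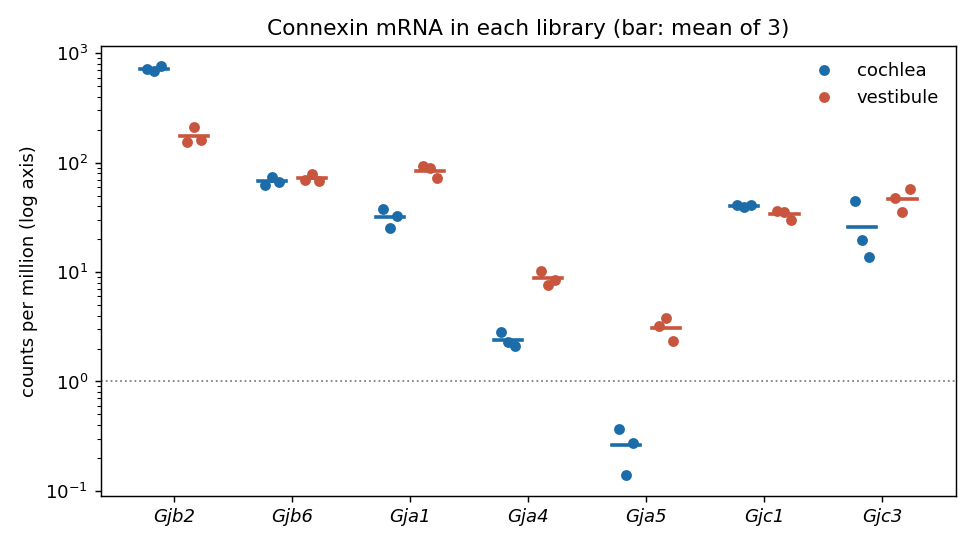
CPM of the 7 connexins (log axis) in each of the 3 cochlear (blue) and 3 vestibular (red) libraries. Short bars are means of 3 libraries and the dotted line is 1 CPM; Gjb2 was separated by a gap with the cochlea higher, Gja1, Gja4 and Gja5 with the vestibule higher, and Gjb6 overlapped.

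Gjb2, the main gap junction subunit of cochlear supporting cells, was the connexin with the highest level in every library. Its level was 713, 682 and 759 CPM in cochlea replicates 1 to 3 and 156, 212 and 162 CPM in vestibule replicates 1 to 3. Every cochlear library stood more than 3 times above every vestibular one. The means were 718 ± 38.5 CPM in the cochlea and 177 ± 30.9 CPM in the vestibule (SD, n = 3 each), a log2 fold change of -2.14 (SE 0.16, 95% interval -2.51 to -1.77, adjusted p = 3.21e-05), or 4.41-fold higher in the cochlea. In absolute size this change was at percentile 94.9 of all genes tested. Over 15 alternative analyses the log2 fold change of Gjb2 lay between -2.26 and -2.02 and stayed called.

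Of the 15 markers of cochlear supporting cells, 14 moved with Gjb2, on a list chosen as markers of the cochlea. Their summed level was 4590 to 5800 CPM in the cochlea and 2670 to 3110 CPM in the vestibule, their median log2 fold change was -1.50, and the 3 most abundant were Otog, Tectb and Epyc. Otog went the other way, at 973 CPM in the cochlea and 2180 CPM in the vestibule (log2 fold change 1.04), and made up most of the vestibular sum. Epyc, a matrix proteoglycan of the cochlear duct, stood at 1490 CPM in the cochlea and 19.8 CPM in the vestibule. All 15 markers passed the filter, Hes5 through the cochlea alone. The part of these cells' abundance in the change of Gjb2 was not tested.

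Gjb6, the partner that forms mixed channels with Gjb2, stood at 62.5, 73.4 and 66.7 CPM in the cochlear libraries and at 69.6, 79.4 and 67.4 CPM in the vestibular libraries. The organs overlapped. The means were 67.5 ± 5.52 and 72.1 ± 6.40 CPM (SD, n = 3 each), and the log2 fold change was -0.027 (SE 0.13, adjusted p = 0.906). Its 95% interval ran from -0.33 to 0.28, so that differences beyond 1.26-fold in either direction lie outside it. The sign of this small value turned positive without TMM scaling (0.10) and when cochlea replicate 2, vestibule replicate 1 or vestibule replicate 3 was left out, and no alternative called it.

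The number of Gjb2 counts for each Gjb6 count did not overlap between the organs. It was 11.4, 9.29 and 11.4 in cochlea replicates 1 to 3, and 2.25, 2.67 and 2.40 in vestibule replicates 1 to 3. The ranges are far apart, and a ratio within a library does not depend on how libraries are scaled. The mean log2 ratio was 3.41 ± 0.17 in cochlear and 1.28 ± 0.13 in vestibular libraries (SD, n = 3 each), a 4.38-fold difference. A two-sided exact permutation test gave p = 0.1, the smallest that 3 against 3 libraries allow.

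The genes on either side of the pair differed in level. Gja3, a lens connexin that lies 40.5 kb from Gjb2, had 5 to 13 counts in each library and was below the filter. Cryl1, a crystallin-like enzyme gene 141 kb from Gjb6, stood at 32.3 ± 3.45 CPM in the cochlea and 25 ± 1.84 CPM in the vestibule (SD, n = 3 each) and was called higher in the cochlea (log2 fold change -0.49, adjusted p = 0.0315).

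Gja1, the most widely expressed connexin of the body and one of connective tissue, glia and many epithelia, lies on chromosome 10 (56377330 to 56402513, plus strand). Its level was 37.5, 25.1 and 32.5 CPM in the cochlear libraries and 92.6, 88.9 and 72.7 CPM in the vestibular libraries. The lowest vestibular library stood clear of the highest cochlear one. The means were 31.7 ± 6.27 and 84.8 ± 10.6 CPM (SD, n = 3 each), a log2 fold change of 1.30 (SE 0.15, adjusted p = 0.000379), or 2.46-fold higher in the vestibule. Over 15 alternatives the value lay between 1.18 and 1.42 and stayed called.

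Markers of several other cell types stood higher in the vestibule with Gja1. Of 11 markers of mesenchyme and fibrocytes, 5 were called higher in the vestibule and 3 in the cochlea, and their sum was 5430 to 6130 CPM in the cochlea and 9780 to 11300 CPM in the vestibule. Their median log2 fold change was 0.32. The most abundant were Col1a2, Col3a1 and Coch. Of these, Col1a2 stood at 2210 and 4970 CPM and Coch at 230 and 1980 CPM, and Col3a1 was not called. Lum went the other way, at 857 CPM in the cochlea and 163 CPM in the vestibule. Of 10 markers of dark cells and stria, the potassium-secreting epithelia, 8 were called higher in the vestibule and 2 were not called (690 to 871 against 1340 to 1450 CPM summed). All 9 macrophage markers (109 to 129 against 429 to 479 CPM) and all 6 melanocyte markers (40.6 to 65.1 against 295 to 352 CPM) were called higher there. None of these markers was below the filter, but the melanocyte genes Tyrp1 and Mlana passed it through the vestibule alone and Otos, of the mesenchyme list, through the cochlea alone, and the part of these cells in the level of Gja1 was not tested.

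Gja4 and Gja5 are the connexins of arterial endothelium, and Gja5 also serves the conducting tissue of the heart. Gja4 lies on chromosome 4 (127311421 to 127314039, minus strand) and Gja5 on chromosome 3 (96904693 to 97077416, plus strand). Gja4 stood at 2.82, 2.29 and 2.12 CPM in the cochlear libraries, from 69, 66 and 62 counts, and at 10.2, 7.55 and 8.52 CPM in the vestibular libraries, from 342, 194 and 217 counts. Every vestibular library was above every cochlear library. The means were 2.41 ± 0.365 and 8.74 ± 1.32 CPM (SD, n = 3 each), a log2 fold change of 1.74 (SE 0.21, adjusted p = 0.000448), or 3.34-fold higher in the vestibule.

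Gja5 was scarce in the cochlea, at 0.368, 0.139 and 0.274 CPM from 9, 4 and 8 counts. In the vestibular libraries it stood at 3.24, 3.78 and 2.32 CPM from 109, 97 and 59 counts. The organs were again apart, and Gja5 passed the filter through the vestibular libraries alone, so that passing it already implied a difference. The log2 fold change was 3.46 (SE 0.36, adjusted p = 0.00018), or 11.0-fold with a 95% interval of 6.23 to 19.4, and 3.44 where no filter was applied. Without any 1 of the vestibular libraries Gja5 fell below the filter and had no value, and in the other 12 alternatives it lay between 3.17 and 3.75 and stayed called. An exon of Gpr89 on the opposite strand overlaps Gja5 by 165 bases, and the strand setting of the counting was not given in the sources used here.

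Endothelial markers moved in the same direction as Gja4 and Gja5. Of 14, 11 were called higher in the vestibule, 1 in the cochlea (Emcn, the sialomucin endomucin) and 2 were not called, with a median log2 fold change of 1.12. Their sum was 279 to 364 CPM in the cochlea and 602 to 818 CPM in the vestibule, and Kdr, the main VEGF receptor, stood at 17 and 224 CPM. None was below the filter.

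Markers of arterial endothelium did not move as 1 group. Of 7 that passed the filter, Sox17 (log2 fold change 1.15) and Bmx (3.09) were called higher in the vestibule, Hey1 (-0.89) and Unc5b (-1.42) higher in the cochlea, and 3 were not called. Bmx passed the filter through the vestibular libraries alone. Dll4 (0.56) and Nrp1 (0.63) were not called, with every vestibular library above every cochlear one, and the median log2 fold change of the 7 was 0.56. Gkn3 was below the filter, and the sum was 447 to 507 CPM in the cochlea and 328 to 391 CPM in the vestibule, most of it from Unc5b, Efnb2 and Nrp1, which other cells also use. The sum was thus lower and the median change higher in the vestibule, where Gja4 and Gja5 were higher. The part of vessels in the change of Gja4 and Gja5 was not tested.

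Of the stratified epithelium markers, 3 of 8 passed the filter, 1 of them, Krt5, was called higher in the vestibule, the organ through which alone it passed, and the sum was 7.97 to 11.0 CPM in the cochlea and 9.21 to 11.3 CPM in the vestibule.

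Gjc1, a connexin of smooth muscle, pericytes and some neurons, lies on chromosome 11 (102799579 to 102819700, minus strand) and differed least among the called connexins. It stood at 41.0, 39.5 and 41.0 CPM in the cochlear libraries and at 36.2, 35.3 and 29.8 CPM in the vestibular libraries. The organs did not overlap, but the gap was small. The means were 40.5 ± 0.868 and 33.8 ± 3.50 CPM (SD, n = 3 each), a log2 fold change of -0.39 (SE 0.12, adjusted p = 0.0394), or 1.31-fold higher in the cochlea. The direction held in all 15 alternatives, but the call was lost in 9 of them: without TMM scaling (-0.26, adjusted p = 0.163), without the filter (-0.41, adjusted p = 0.0703), with the replicate block (-0.39, adjusted p = 0.15) and when any 1 library was left out (adjusted p 0.0545 to 0.153). Smooth muscle and pericyte markers ran the other way on balance, with 7 of 10 called higher in the vestibule and 2 in the cochlea, though their sums overlapped (368 to 524 CPM and 467 to 575 CPM). Cnn1 was below the filter and Myh11 passed it through the vestibule alone. Of 10 neuronal markers, 5 were called higher in the cochlea and none in the vestibule, with a median log2 fold change of -1.73. Their sums overlapped as well and ranged from 299 to 672 CPM between cochlear libraries, where Gjc1 stayed between 39.5 and 41.0 CPM. The part of these cells in the level of Gjc1 was not tested.

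Gjc3, a connexin of myelinating glia, lies on chromosome 5 (137953461 to 137963098, minus strand) and had the largest spread relative to its mean between cochlear libraries among the 7 members. It stood at 44.6, 19.6 and 13.8 CPM in cochlea replicates 1 to 3 and at 47.3, 35.4 and 57.1 CPM in vestibule replicates 1 to 3. Cochlea replicate 1 fell within the vestibular range, and the other cochlear libraries lay below it. The means were 26 ± 16.4 and 46.6 ± 10.9 CPM (SD, n = 3 each), and the log2 fold change of 0.74 (SE 0.39, 95% interval -0.16 to 1.63, adjusted p = 0.202) did not pass. Without cochlea replicate 1 it was 1.34 with an adjusted p of 0.0122, so that this library decides the call.

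Markers of Schwann cells and glia summed to 1010, 805 and 813 CPM in the cochlear libraries and 1730, 1520 and 1900 CPM in the vestibular libraries. Cochlea replicate 1 was the highest of the cochlear libraries for this sum, though not within the vestibular range. Of 13 that passed the filter, 7 were called higher in the vestibule, 6 were not called and none was higher in the cochlea. Sox10, a transcription factor of these glia and the most abundant gene of the list, stood at 282 and 390 CPM and was not called, and Gfra3 was below the filter. Neuronal markers summed to 672, 603 and 299 CPM in the cochlea and 392, 173 and 193 CPM in the vestibule, with 5 of 10 called higher in the cochlea and none in the vestibule. The part of nerve tissue in the spread of Gjc3 was not tested.

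**Figure D2:**
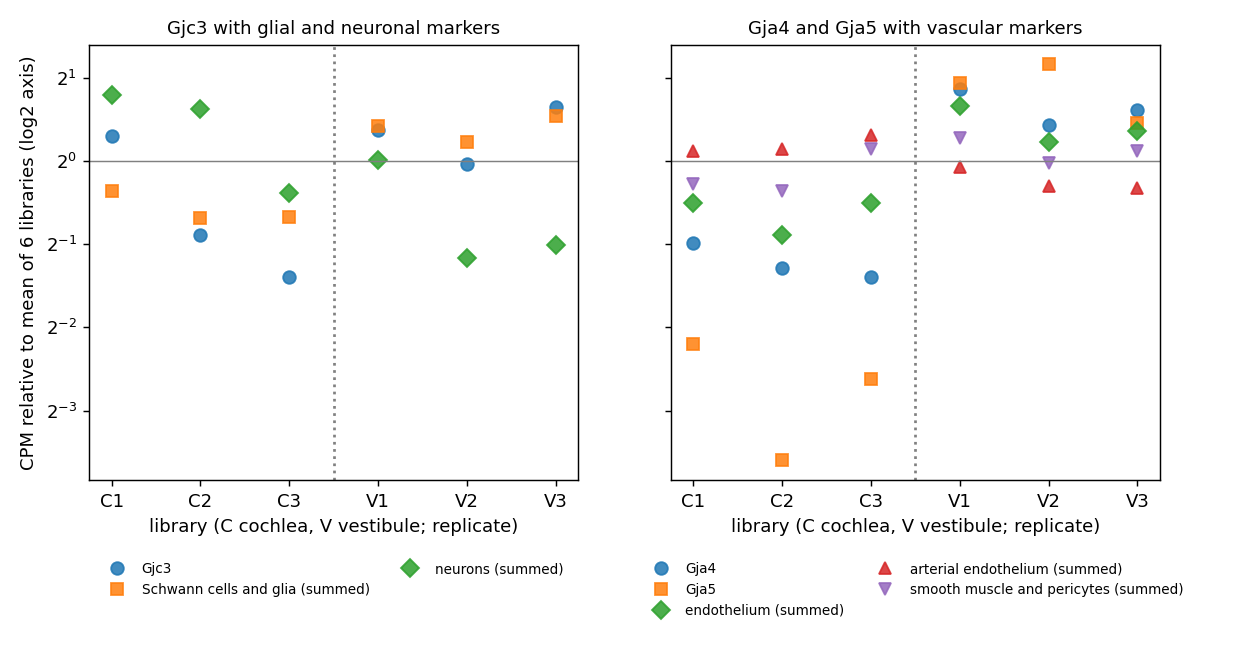
Levels in each library relative to the mean of all 6 libraries (log2 axis), left for Gjc3 with the summed markers of Schwann cells and glia and of neurons, right for Gja4 and Gja5 with summed vascular markers. Endothelium stood higher in the vestibule with Gja4 and Gja5, the sum of the arterial markers stood lower there, and Gjc3 in cochlea replicate 1 (1.23 times the mean) was close to vestibule replicate 1 (1.30 times).

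Levels of different genes were compared per length, as RPKM (reads per kilobase, scaled to library size), on the merged exons of GENCODE vM21. In the cochlea Gjb2 came first at 298 RPKM and Gjb6 next at 25.2 RPKM, clear of the rest. Gjc1 (8.10), Gjc3 (5.97) and Gja1 (3.09) followed, with the libraries of Gjc3 overlapping those of both others, then Gja4 (1.43) and Gja5 (0.0453 RPKM). In the vestibule Gjb2 was first again at 73.5 RPKM and Gjb6 next at 27 RPKM, then Gjc3 (10.7), Gja1 (8.26), Gjc1 (6.75) and Gja4 (5.19 RPKM), each overlapping the next, and Gja5 (0.541 RPKM). The place of Gja1 rests on the length used. In the authors' deposited log2 values, where the merged exons are 3.31 times the length used, its means were 10.2 and 27.4 RPKM, and it came next after Gjb6 in both organs, overlapping Gjc1 in the cochlea and Gjb6 in the vestibule. Gjb2 and Gjb6 were first and next in both organs on either length.

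In the authors' values the 7 genes summed to 339 to 369 RPKM in the cochlear libraries and 149 to 175 RPKM in the vestibular libraries. Gjb2 took 82.6% to 85.5% of that sum in the cochlea and 42.4% to 50.5% in the vestibule. Gjb6 took 7.67% to 9.55% in the cochlea and 20.0% in each vestibular library, and Gja1 took 2.38% to 3.37% and 15.8% to 19.5%. On the merged exon lengths the share of Gjb2 was 86.3% to 88.6% and 52.1% to 60.1%, and that of Gja1 0.747% to 1.06% and 5.71% to 7.24%. These shares are descriptions of mRNA and were not tested.

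**Figure D3:**
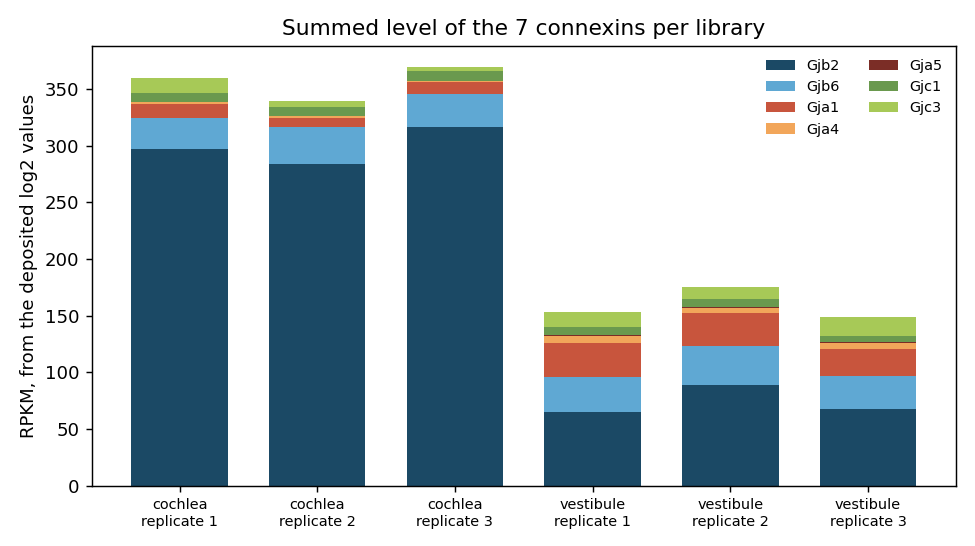
Stacked RPKM of the 7 connexins in each library, from the authors' log2 values. Gjb2 is the tallest block in all 6 libraries and is shorter in the vestibule, whereas the Gjb6 block stays between 27.6 and 35.1 RPKM.

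Beyond these 7, other connexins that passed the filter were low. Gjb1, a connexin of myelinating Schwann cells and liver, stood at 1.55, 1.18 and 0.89 CPM in the cochlear libraries and 3.45, 3.85 and 4.04 CPM in the vestibular libraries, with no overlap. Its log2 fold change was 1.53 (SE 0.27, adjusted p = 0.00315). It was called in the direction of the 7 glial markers called, whose part in this was not tested.

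Gjd2, the connexin of neuronal electrical synapses, stood at 5.60, 2.81 and 1.03 CPM in the cochlear libraries and 2.70, 2.38 and 2.08 CPM in the vestibular libraries. The vestibular values lay within the cochlear range, and it was not called (log2 fold change -0.51, adjusted p = 0.49). Its cochlear libraries had the same order as the neuronal sum, which is a description over 3 libraries and held for Gjc3 too. In the vestibule the order differed, with the neuronal sum at 392, 173 and 193 CPM in replicates 1 to 3. In all, 2 of the 10 connexins tested were called higher in the cochlea, 5 in the vestibule and 3 were not called, beside 11.6%, 15.8% and, in either direction, 27.4% of all genes tested. Of the 5, 2 passed the filter through the vestibule alone, and the other 10 of the 20 connexins were below it.

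Of the 3 pannexins, a separate family that forms channels in single membranes, 1 was called. Beside 27.4% of all genes tested, this count is no result about the family. Panx1, present in most cells, stood at 26.1 CPM in the cochlea and 25.7 CPM in the vestibule (log2 fold change -0.14, 95% interval -0.48 to 0.20), and Panx2, mainly of the nervous system, at 6.43 and 7.72 CPM (0.14, interval -0.31 to 0.58). Neither was called. Panx3, the pannexin of cartilage and bone, stood at 1.27, 0.139 and 0.513 CPM in the cochlear libraries and 2.82, 2.88 and 2.94 CPM in the vestibular libraries, and was called higher in the vestibule (2.09, SE 0.53, adjusted p = 0.0196). Cartilage and bone markers moved the same way in 6 of 9 tested, with 1 higher in the cochlea, while their sums overlapped (10500 to 17800 CPM and 13000 to 16400 CPM).

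**Figure D4:**
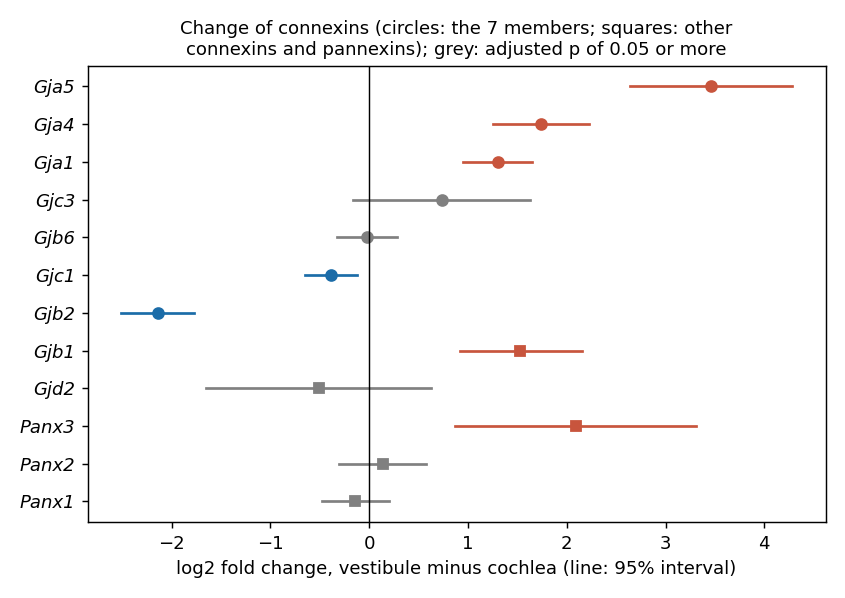
Log2 fold change, vestibule minus cochlea, with its 95% interval for 9 connexins and 3 pannexins that passed the filter, from 3 against 3 libraries. Blue genes were called higher in the cochlea, red in the vestibule, and grey genes were not called; the interval of Gjb6 lies between -0.33 and 0.28 and that of Gjb2 between -2.51 and -1.77.

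Of 13 genes for scaffolds, adhesion and turnover of gap junctions, all passed the filter, 2 were called higher in the cochlea, 1 in the vestibule and 10 were not called. With 27.4% of all genes called, this count is no result about these genes as a group. Ccn3, a matricellular protein that binds the tail of the Gja1 product, had the largest change, from 231 ± 32.1 CPM in the cochlea to 24.8 ± 1.27 CPM in the vestibule (SD, n = 3 each, log2 fold change -3.34, adjusted p = 3.47e-06). Its level was low in the organ where Gja1 was high. Cdh1, the epithelial cadherin, stood at 474 ± 50.7 and 268 ± 15.9 CPM (-0.94, adjusted p = 0.00114). Tjp1, the scaffold that borders gap junction plaques, stood at 259 ± 24.1 and 484 ± 94.6 CPM (0.77, adjusted p = 0.00753), higher in the vestibule as Gja1 was.

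The genes whose log2 CPM was most like that of each member over the 6 libraries were named by Pearson's r, which here mostly follows the difference between the organs, with the libraries shared by every pair. For Gjb2 these were Chst13 (r = 0.9998), Cpa6 and Rtn4r, and 502 of the 14723 genes had an r above 0.95. For Gja1 they were Sh3tc1 (0.9979), Nckap1l and Cd36, for Gja4 Fgf1 (0.9982), Sv2c and Cacna2d4, and for Gja5 Ak5 (0.9991), Rbks and Fam163a. Between 1010 and 1105 genes passed 0.95 for these 3 members, so the leading genes stand out little from many others. Gjb6 had none above 0.95, the closest being Bud13, Foxm1 and E2f1. Gjc1 had 88, led by Rspo1, Tmem121b and Asic1, and Gjc3 had 43, led by Cln8, Scg5 and 1700019D03Rik.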

How the data were processed

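RNA-seq was carried out on 3 cochlear and 3 vestibular libraries, 100 bp paired end, with a stranded mRNA kit. Per the submitters' processing notes the authors used TopHat2 2.1.0, SAMtools 0.1.18, HTSeq 0.5.4p5 and edgeR 3.4.2 with GRCm38. The deposited files hold whole read counts per Ensembl gene, and the authors also deposited log2 RPKM values for the genes past their filter, scaled by library size. Rows that name no single gene (18.5% to 20.6% of the listed counts) were left out of library sizes and tests.

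The filter kept genes that reached 1 CPM in at least 3 libraries. The test was run in R 4.3.3 with edgeR 4.0.16 (quasi-likelihood test, TMM scaling, Benjamini-Hochberg FDR 0.05), and was also tested on simulated data. SEs were taken from the F statistic. The log2 CPM for likeness used a prior count of 0.5. Alternatives were other scalings and filters, DESeq2 1.42.0, edgeR's exact test, limma-voom (limma 3.58.1), the replicate number as a block, and leaving out each library.

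Members and lists were chosen with earlier results of these data known. The genes named were the members, the family and pannexin genes past the filter, called partners and cluster neighbours (up to 4 each), the 3 genes most like each member and the most abundant markers, with single markers named beside a result for their role. The results of some genes under this rule are not reported here. Marker lists covered cochlear supporting cells, hair cells, endothelium, arterial endothelium, smooth muscle and pericytes, Schwann cells and glia, mesenchyme, cartilage and bone, dark cells and stria, stratified epithelium, melanocytes, macrophages, skeletal muscle, neurons and red blood cells. Coordinates are from GENCODE vM21, not the annotation counted on, and promoters from RefSeq GRCm38.p6.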

Additional observations from a re-analysis of the deposited data

How the results depend on the processing

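In all, 171 alternatives were run over 13 results, and 141 kept the direction and the side of the threshold, or for a count stayed within 1.5 times. For Gjb2, Gja1, Gja4, Gja5 and the Gjb2 to Gjb6 ratio this was every alternative that gave a value; Gja5 had none in the 3 analyses without a vestibular library. The number of genes called was 1711 (cochlea higher) and 2325 (vestibule higher). With 1 library left out it was 925 to 1863 in the cochlea (925 without vestibule replicate 2, 1035 without cochlea replicate 2) and 1342 to 2694 in the vestibule (1342 without vestibule replicate 2, 1522 without vestibule replicate 1), where an organ keeps only 2 libraries. Without TMM scaling the median over all genes tested moved to 0.125 and the vestibular share of calls from 57.6% to 68.8%. Connexins called higher in the cochlea fell from 2 to 1 without TMM, without the filter, with the replicate block and without any 1 library, in each case through Gjc1, whose log2 fold change was -0.26 without TMM, -0.41 without the filter, -0.39 with the block and -0.40 to -0.32 without 1 library. For Gjb6 the value was 0.096 without TMM and -0.098 to 0.066 without 1 library. Gjc3 was 0.42 to 1.34 without 1 library, and passed without cochlea replicate 1. Of the 14 places in the order of levels on merged exons (7 genes in each organ), 9 were the same in the authors' RPKM and 9 in CPM, with no length. The cause was not tested for these.

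Same-numbered libraries had correlations of their deviations of -0.175, -0.26 and -0.475. Deviations from the mean of 3 libraries constrain each other, so these values cannot tell whether the numbers pair the libraries. With the replicate block 1009 genes were called higher in the cochlea and 1609 in the vestibule, and Gjb2, Gja1, Gja4 and Gja5 stayed called. At these depths a gene at 1 CPM rests on 24.5 to 33.7 counts, which limits Gja5 in the cochlea.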

Other observations

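Red blood cell markers, 6 of 7 of which were tested, were not called in either direction, and summed to 293 to 738 CPM in the cochlea and 477 to 640 CPM in the vestibule. None of the 4 skeletal muscle markers tested was called.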
